A study of Mus musculus with 5 samples.

Results

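The CCN genes encode 6 secreted matricellular proteins: Ccn1 (formerly Cyr61), Ccn2 (Ctgf), Ccn3 (Nov), Ccn4 (Wisp1), Ccn5 (Wisp2) and Ccn6 (Wisp3). They were found through the RefSeq accession of each array probe, which gave 7 probes for all 6 genes, among 56595 probes and 22907 named genes in all. Ccn4 had 2 probes and each other gene had 1. RNA came from B16F1 cells, a mouse melanoma line, and each array held the RNA of 1 culture. The tested cultures were Tmsb4x knockout clone 1 and clone 2 with TGF-β1 (1 array each, n = 2 clones), wild-type cells with TGF-β1 and CCG1423 (1 array), and wild-type cells with TGF-β1 (1 array). The wild-type culture with vehicle (1 array) is the control. The dose of TGF-β1 was 10 ng/ml, that of CCG1423, a small-molecule inhibitor of MRTF signalling, was 10 µM, and the labels of these cultures give 2 days of treatment, while those of the vehicle culture give no time. Every culture except the vehicle one received TGF-β1, and no knockout culture without TGF-β1 was analysed here. Each knockout line is a single clone. The labels do not give the edit, and the design text calls it a knockdown. The field for treatment of the inhibitor sample names CCG1423 alone, while its title and description name both agents, and it was taken as both. The question of the series is how Tmsb4x, which encodes the actin monomer-binding peptide thymosin β4, bears on TGF-β and MRTF signalling.

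CCN proteins are built as a chain of modules: an insulin-like growth factor binding protein-like module, a von Willebrand factor type C module, a thrombospondin repeat and a C-terminal cysteine knot, which Ccn5 lacks. They sit in the extracellular matrix, bind integrins and heparan sulfate proteoglycans, and modify the action of growth factors. Ccn1 and Ccn2 are textbook targets of YAP and TEAD and of MRTF and SRF, and Ccn2 is also induced by TGF-β through SMAD proteins. MRTFs are held inactive by monomeric actin.

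Tmsb4x had a normalized log2 level of 5.44 in clone 1, 4.28 in clone 2, 6.79 with TGF-β1 and CCG1423, 7.12 with TGF-β1 and 5.05 with vehicle. Its level in the clones was below that of wild-type cells with TGF-β1 by 2.26 on the log2 scale, which did not pass the test (limma, adjusted p = 0.0857), and clone 1 lay above the vehicle culture. Where the probe lies relative to the edit is not given, so its level does not check the loss of protein. On each array 48.2% to 53.8% of probes were well above background, and 0 spots were saturated. The detection limit, taken as the lowest signal flagged well above background, was 26.0 for clone 2 and between 13.3 and 15.5 elsewhere. All 8 melanocyte markers were well above background on every array. Of markers of other cell types, 4 of 7 immune genes (Itgam, Cd68, Csf1r and Cd3e), 1 of 6 fibroblast genes (Postn), 0 of 6 epithelial and 0 of 4 endothelial genes were above it on every array. Itgam had levels of 5.08 and 4.61 in the clones, 4.87 with both agents, 4.77 with TGF-β1 and 4.71 with vehicle. The pan-leukocyte gene Ptprc, the macrophage gene Adgre1, the fibroblast genes Dcn, Pdgfra and Thy1, and the epithelial genes Epcam, Cdh1, Krt8 and Krt18 were above background on no array, and the other fibroblast and epithelial genes (Lum, Col6a3, Krt5 and Krt14) on some. The clones are separate lines and hence separate cultures, and the labels do not say whether the wild-type cultures were grown separately. The spread between the clones may be partly technical.

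Ccn1, Ccn2 and Ccn4 were well above background on all 5 arrays. Ccn5 was well above background on 1 array, that of clone 2, and Ccn3 and Ccn6 on 0 of 5. A level here is the log2 processed signal minus the 75th percentile of the array, so 0 is the 75th percentile, and levels of different probes are not set against each other. The scanner software's own error was 10.0% to 10.5% of the signal for the probes of Ccn1, Ccn2 and Ccn4. It covers the spot and not the culture. Each wild-type condition has 1 array, so differences between them have no replicate check. The difference between the clones, which share the knockout label and the treatment, is the one spread available. It includes any difference between the clones as lines, and limma takes the lone wild-type array to vary like them. Over 12368 genes measured in both clones the clone difference had a median size of 0.26 and a 95th percentile of 0.95 on the log2 scale.

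**Figure D1:**
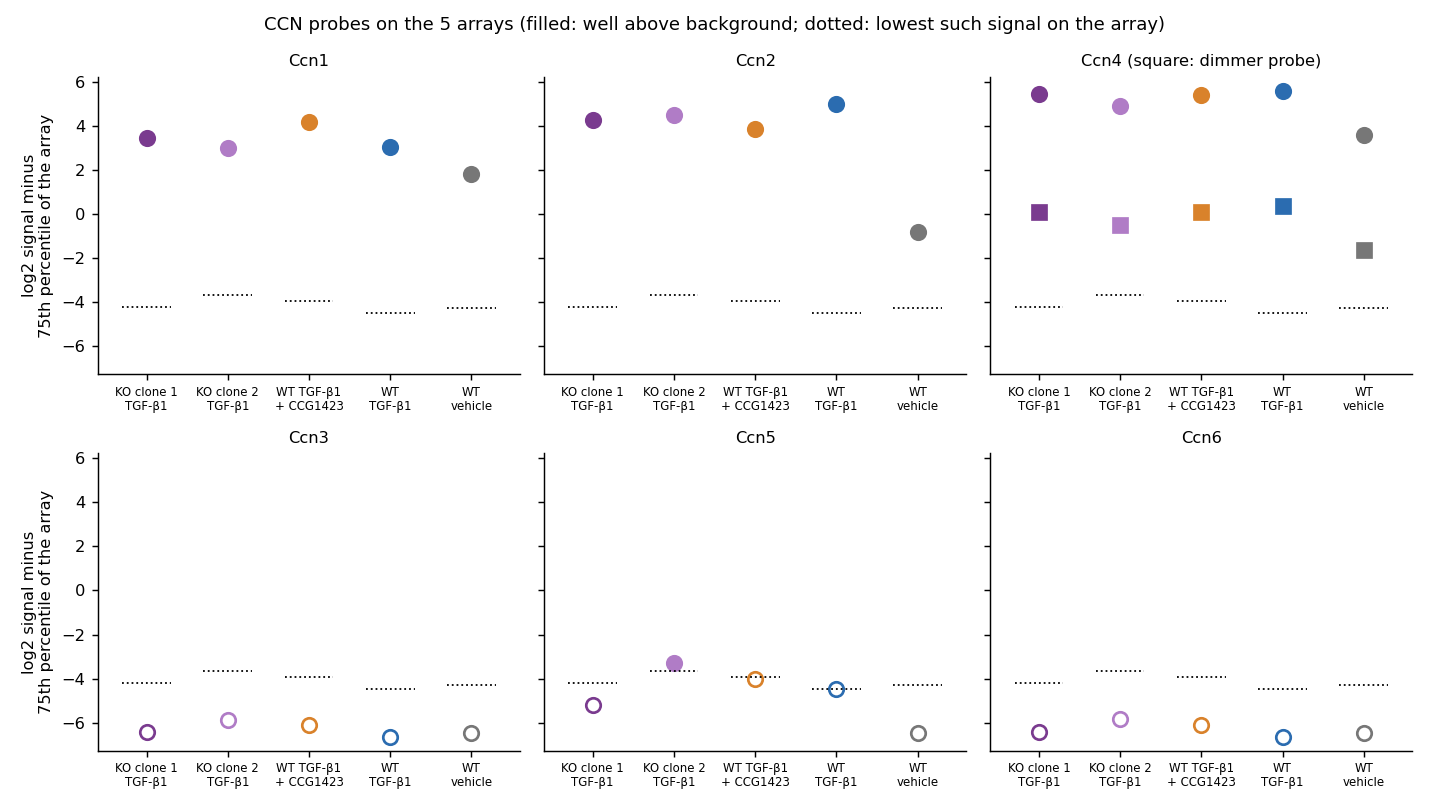
Level of each CCN probe (log2 processed signal minus the array's 75th percentile) on the 5 arrays, with knockout clones at the left and vehicle at the right; filled symbols were well above background, open symbols were not, and the dotted marks are the lowest signal well above background on that array. Ccn1, Ccn2 and both Ccn4 probes were lowest with vehicle, and the Ccn5 probe was called well above background in clone 2 alone, although its open symbol with TGF-β1 also lies just over the mark.

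Ccn2, connective tissue growth factor, showed the widest range of the family's measured genes. Its processed signal was 5382 in clone 1, 7405 in clone 2, 3317 with TGF-β1 and CCG1423, 9364 with TGF-β1 and 171 with vehicle. The normalized log2 levels were 4.26 and 4.49 in the clones, 3.85 with both agents, 4.99 with TGF-β1 and -0.80 with vehicle. All 4 cultures that received TGF-β1 thus stood far above the vehicle culture, and the 4 lay within little more than 1 log2 unit of each other. Relative to vehicle, Ccn2 was 55.5-fold higher with TGF-β1, 25.2-fold higher with TGF-β1 and CCG1423, and 33.4-fold and 39.2-fold higher in the clones. These comparisons share the vehicle array, and the last also differs in genotype. In bulk RNA, fewer cells with the transcript and less transcript per cell cannot be told apart.

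Among the TGF-β1 cultures, wild-type cells with TGF-β1 alone had the highest Ccn2 level. The clones followed at 4.38 ± 0.16 (SD, n = 2), then the CCG1423 culture, then vehicle. The neighbouring gaps of 0.62, 0.52 and 4.66 each exceeded the 0.23 between the clones. That is 1 difference of 1 gene, smaller than that of 55.0% of genes, and the gaps of 0.62 and 0.52 lay within the 95th percentile of 0.95 over all genes. With CCG1423, Ccn2 was 2.20-fold lower than with TGF-β1 alone. In the knockout it was 1.66-fold lower in clone 1 and 1.41-fold lower in clone 2 than in wild-type cells with TGF-β1. The mean log2 difference of -0.62 (SE 0.28) had an unadjusted p of 0.0576 and an adjusted p of 0.900 in limma, so the knockout difference did not pass, although both clones lay below wild type.

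Ccn1, the cysteine-rich angiogenic inducer that cells read through integrins, was also lowest with vehicle, but its highest level was in another culture. Its processed signal was 3023 in clone 1, 2602 in clone 2, 4131 with TGF-β1 and CCG1423, 2459 with TGF-β1 and 1064 with vehicle. The normalized log2 levels were 3.43 and 2.98 in the clones, 4.17 with both agents, 3.06 with TGF-β1 and 1.83 with vehicle. With TGF-β1 alone Ccn1 was 2.35-fold above vehicle, and it was 2.15-fold higher again when CCG1423 was added to TGF-β1. Against vehicle the culture with both agents was 5.06-fold higher, and clone 1 and clone 2 were 3.03-fold and 2.22-fold higher.

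In order of level, the CCG1423 culture came first, then the clones at 3.21 ± 0.32 (SD, n = 2), wild-type cells with TGF-β1, and vehicle. The clones and the wild-type TGF-β1 culture, which are neighbours in that order, differed by 0.14, less than the 0.45 between the clones. The gaps above and below them, 0.96 and 1.23, were larger than that spread, which is 1 difference of 1 gene. The gap of 0.96 was close to the 95th percentile of 0.95 for clone differences over all genes. The knockout difference was 0.37 in clone 1 and -0.08 in clone 2, with a mean of 0.14 (SE 0.30, limma adjusted p = 1.00). The clones thus lay on both sides of the wild-type level.

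Among the CCN genes, promoter windows were available for Ccn1 and Ccn6 only, so those of Ccn2 and Ccn4 were not searched. The Ccn1 promoter is shown because Ccn1 differed with both agents and its upstream region holds the letters of the TEAD core motif. The TEAD core was thus a reason for the choice, and its presence is not a result. The 250 bases before the start come from RefSeq, build GRCm38.p6, chr3:145649986-145650235, minus strand, 5′ to 3′. Capitals mark the TEAD core (GGAATG, here on the other strand as CATTCC).
Ccn1: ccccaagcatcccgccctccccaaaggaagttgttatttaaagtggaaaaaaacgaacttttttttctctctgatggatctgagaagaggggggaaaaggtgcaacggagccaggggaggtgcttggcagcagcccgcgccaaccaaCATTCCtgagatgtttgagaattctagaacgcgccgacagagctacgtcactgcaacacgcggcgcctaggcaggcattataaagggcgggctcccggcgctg
The TEAD core occurred 1 time, at 103 to 98 bases before the start. It occurs on either strand in 12.6% of 32851 promoter windows of the same length. The core of the cAMP response element, TGACG, occurred 1 time on the other strand at 58 to 54 bases (17.8% of windows), and TATAAA 1 time at 25 to 20 bases (12.4% of windows, either strand). The SMAD box CAGAC (42.2% of windows), the AP-1 site TGANTCA (6.75%) and the CArG box that SRF binds (1.47%) were not found in these 250 bases on either strand. The motifs did not overlap each other. The promoter table also holds a window for Ccn6, which was below background throughout and is not shown. A match is a stretch of letters and not a measured site.

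Ccn4, a Wnt-inducible member of the family, was measured by 2 probes, and their changes ran side by side. The brighter probe, A_55_P2914891, had log2 levels of 5.43 in clone 1, 4.89 in clone 2, 5.41 with TGF-β1 and CCG1423, 5.60 with TGF-β1 and 3.57 with vehicle. The dimmer probe, A_55_P2739961, gave 0.10, -0.48, 0.09, 0.37 and -1.64 on the same arrays in the same order. On both probes vehicle was the lowest culture, and clone 2 was the lowest of those that received TGF-β1. With TGF-β1 alone Ccn4 was 4.08-fold above vehicle by the brighter probe and 4.04-fold by the dimmer one. Against vehicle the CCG1423 culture was 3.58-fold and 3.32-fold higher by the 2 probes. Clone 1 was 3.64-fold higher than vehicle by the brighter probe and clone 2 2.50-fold.

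Ccn4 differed little among the cultures that received TGF-β1. With CCG1423 added, the log2 difference from TGF-β1 alone was -0.19 and -0.29 by the 2 probes. The knockout clones averaged 5.16 ± 0.38 (SD, n = 2) by the brighter probe. In order of level, TGF-β1, TGF-β1 with CCG1423 and the clones were separated by 0.19 and 0.25, less than the 0.54 between the clones, while the gap of 1.59 between the clones and vehicle was larger. The knockout minus wild-type difference was -0.17 in clone 1 and -0.71 in clone 2. Its mean of -0.44 (SE 0.33) did not pass in limma (adjusted p = 1.00), nor did the mean of -0.56 by the dimmer probe (SE 0.34, limma adjusted p = 1.00 over all probes). For every array compared, the 2 probes' log2 differences lay within 0.16 of each other.

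Ccn5, the member without the C-terminal module, was dim. Its processed signal was 7.67 in clone 1, 34.1 in clone 2, 14.0 with TGF-β1 and CCG1423, 13.5 with TGF-β1 and 3.41 with vehicle, with software errors of 3.42, 6.67, 3.68, 3.28 and 3.42. The signal of clone 2 was the one called well above background, on the array with the highest limit for that call. The Ccn5 signal was positive and significant by the software's weaker flag in all 4 cultures with TGF-β1 and not with vehicle. A dim side was taken at its array's limit, or at its own signal where that was larger, as with TGF-β1 alone (13.5 against a limit of 13.3). On that basis clone 2 was 2.26-fold higher than wild-type cells with TGF-β1 and at least 2.00-fold higher than vehicle. The value of 2.26 is a ratio of 2 dim signals with the errors given above, and not a lower bound. Clone 1 was at least 1.90-fold lower than clone 2. Since 1 of 2 clones measured it, Ccn5 did not enter the knockout test.

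Ccn3, which in human melanocytes takes part in adhesion to the basement membrane, and Ccn6, a gene linked to a human skeletal dysplasia, gave no signal above background. The Ccn3 signal was 3.31 in clone 1, 5.69 in clone 2, 3.35 with both agents, 2.95 with TGF-β1 and 3.38 with vehicle. The Ccn6 signal was 3.31, 5.73, 3.30, 2.94 and 3.40 on the same arrays in the same order. Both probes followed the low end of the array, with errors as large as the signal, and no fold is given. Their transcripts were not detectable on these arrays.

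Setting wild-type cells with TGF-β1 against vehicle shows the family's response to the cytokine alone. Ccn1, Ccn2 and Ccn4, 3 of the 6 genes, passed 2-fold upward and 0 passed downward. The other 3 were called well above background on neither array. Over all 14145 genes compared, 4.95% passed upward and 3.27% downward, and the median log2 difference was -0.05. Between the 2 clones, 7.57% of 13849 genes passed 2-fold in either direction, and 0 of Ccn1, Ccn2 and Ccn4 did. By log2 difference of signal from the highest, Ccn2 ranked 25 (5.79), Ccn4 ranked 506 (2.03) and Ccn1 ranked 772 (1.23). These ranks used signals not raised to the detection limit, so genes not well above background on 1 side could stand ahead. Ccn1 thus ranked beyond the 700 genes that passed 2-fold upward. The Ccn2 fold exceeded the Ccn1 fold on the same 2 arrays by a factor of 23.6. A constant per array leaves this factor unchanged; it was 24.0 with quantile normalization and 18.7 with normexp. The fibroblast marker Postn, which encodes the matrix protein periostin, was 3.91-fold higher with TGF-β1. The other 2 fibroblast markers compared lay below 0, as did 57.2% of all genes, and 1 of them was at least 2-fold lower. The list's median level over 6 genes was -5.23 with TGF-β1 and -4.25 with vehicle, and its part in the result was not tested.

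**Figure D2:**
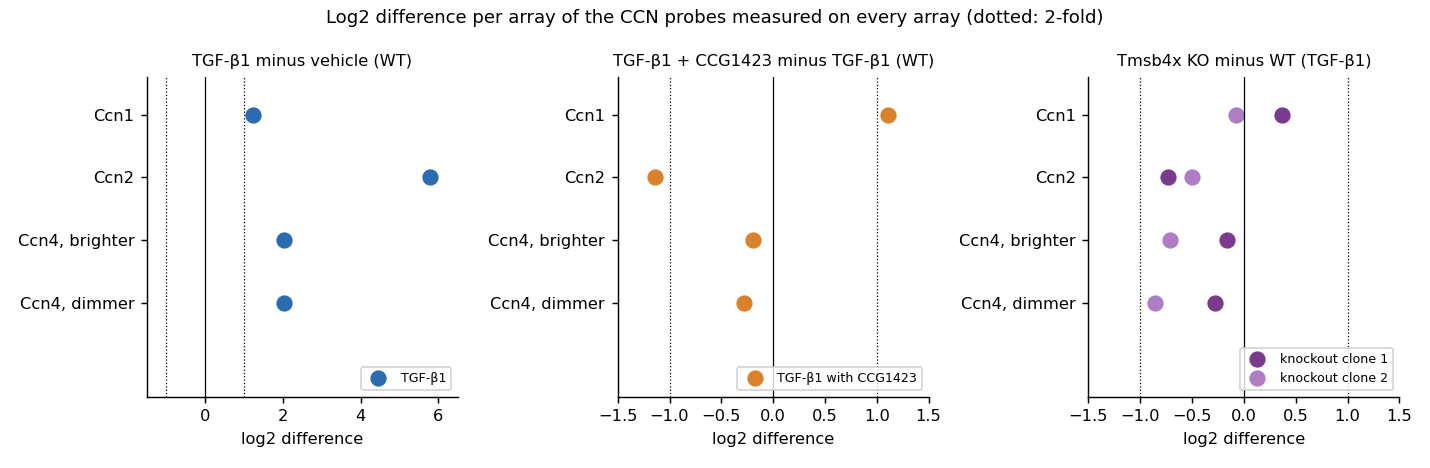
Log2 difference of the 4 CCN probes measured on every array, for TGF-β1 minus vehicle, TGF-β1 with CCG1423 minus TGF-β1, and knockout minus wild type under TGF-β1; each point is 1 array against 1 array, and dotted lines mark 2-fold. Ccn2 lies at 5.79 with TGF-β1, Ccn1 and Ccn2 lie on opposite sides of 0 with CCG1423 (1.11 and -1.14), and no point passes 2-fold in the knockout.

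The lists around the family are read against the shares over all genes, 4.95% higher and 3.27% lower, and each holds few genes. Among inducers of CCN transcription, 2 of 23 were at least 2-fold higher and 1 lower: Lef1, a Wnt-pathway transcription factor, was 3.39-fold higher, Hif1a, the hypoxia-inducible factor, 2.24-fold higher, and the immediate-early factor Egr1 4.15-fold lower. Among receptors and co-receptors 1 of 15 tested was higher, the integrin subunit gene Itgb5 (2.22-fold), and 0 were lower. Among growth factors and matrix proteins that CCN proteins bind, 2 of 6 were higher: Pdgfb, a platelet-derived growth factor chain (6.64-fold), and Fn1, fibronectin (2.29-fold). Of the YAP-TEAD targets outside the family, 4 of 20 were higher and 0 lower, led by Gadd45b, a stress-inducible gene (2.79-fold), and F3, tissue factor (2.68-fold), and the list's median was 0.52. Of 13 Hippo kinases and inhibitors, which restrain YAP, 0 reached 2-fold. Of 8 proteases and proteins with CCN-like modules, 3 were higher and 2 lower. Bmp1, a procollagen C-proteinase, was 2.67-fold and Adamts4, an aggrecanase, 2.53-fold higher. The 2 lower genes were below background with TGF-β1 and lay at least 20.6-fold and 2.17-fold under vehicle. None of 5 insulin-like growth factor binding protein genes, whose products share a module type with CCN proteins, reached 2-fold.

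**Figure D3:**
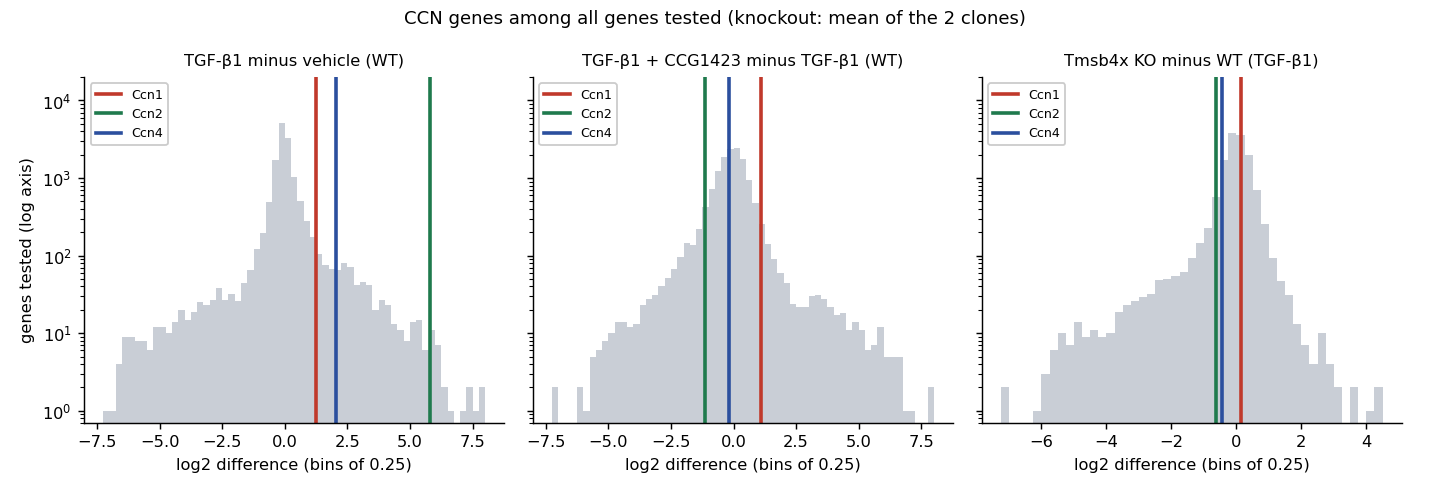
Histograms of the log2 difference of all genes tested (bins of 0.25, logarithmic count axis) in the 3 comparisons, with vertical lines at Ccn1, Ccn2 and Ccn4; the knockout panel uses the mean of the 2 clones. With TGF-β1 the 3 lines lie to the right of the bulk of genes, and in the knockout panel they lie within it.

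Wild-type cells with TGF-β1 and CCG1423 were next set against those with TGF-β1 alone, and the measured CCN genes differed in opposite directions. Of the 6 genes, Ccn1 was at least 2-fold higher, Ccn2 at least 2-fold lower, and Ccn4 was measured and did not reach 2-fold. The other 3 were called well above background on neither array. Over all 14057 genes tested, 6.01% were at least 2-fold higher and 6.98% at least 2-fold lower, so 13% passed in either direction; on the scale the authors deposited, 658 were higher and 1304 lower, against 845 and 981 here. The median over all genes was -0.05. The Ccn1 and Ccn2 values, 1.11 and -1.14, ranked 754 from the highest and 1083 from the lowest. These ranks also used signals not raised to the limit, so Ccn2 ranked beyond the 981 genes that passed downward. The ratio of Ccn1 to Ccn2 change on the same 2 arrays was 4.74-fold, 4.82-fold with quantile normalization and 5.29-fold with normexp, and a constant per array leaves it unchanged. On the deposited scale Ccn1 itself lay just under 2-fold (0.98). Relative to vehicle, 3 of 6 genes were still at least 2-fold higher with both agents (Ccn1, Ccn2 and Ccn4), where 7.56% of 13842 genes were. All 8 melanocyte markers lay below 0 with CCG1423, as did 53.7% of all genes. The median level over the list was 6.53 with both agents and 7.43 with TGF-β1 alone, and the part of these markers in the CCN result was not tested. Of the immune markers 1 of 5 compared was at least 2-fold higher, Cd68, with levels of 3.33 with both agents and 1.83 with TGF-β1 alone; its part was not tested either.

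For the lists around the family the shares over all genes were 6.01% higher and 6.98% lower, or 13% in either direction. Of 23 CCN inducers 0 reached 2-fold, and their median was -0.10. Of YAP-TEAD targets other than CCN genes, 1 of 20 was at least 2-fold higher, the receptor tyrosine kinase gene Axl (4.20-fold), and 0 were lower. Of 15 receptors and co-receptors 2 were higher, of which Itgb3, the subunit of the vitronectin receptor that binds CCN proteins, was measured on both sides (2.06-fold). Fn1 was 2.05-fold higher, as 1 of 2 higher among 7 binding partners. Igfbp6 was 5.39-fold higher, as 1 of 2 higher among 5 members of its family. Of 6 genes on the protease and module list 1 was lower, the gelatinase gene Mmp2 (2.18-fold). All 6 lay below 0, as did 53.7% of all genes. Of 13 Hippo kinases and inhibitors 0 reached 2-fold.

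The knockout was set against wild-type cells under TGF-β1. None of the 3 CCN genes tested passed limma at adjusted p 0.05, and 0 of 3 passed at an unadjusted p under 0.05. Over all 13729 genes 0.233% passed, 1 higher and 31 lower, and 793 had an unadjusted p under 0.05; with the 75th percentile taken over probes well above background on all arrays, 10 passed as higher and 64 as lower. None of the 3 passed 2-fold in both clones, as 2.28% of all genes did. The median over all genes was -0.0050, and the CCN values of -0.62 for Ccn2, -0.44 for Ccn4 and 0.14 for Ccn1 ranked 1108 and 1715 from the lowest and 4512 from the highest. Ccn2 and Ccn4 were below wild type in both clones, and Ccn1 in 1 of 2. Against wild-type vehicle, Ccn1, Ccn2 and Ccn4 were at least 2-fold higher in both clones, where 3.1% of 13490 genes were; genotype and treatment cannot be told apart there. The fibroblast marker Postn lay at 1.06 in clone 1, -2.72 in clone 2 and 1.28 in wild-type cells with TGF-β1 (limma adjusted p = 0.983), and no other gene of that list entered the test; its part in the CCN values was not tested.

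In the lists around the family, 0 genes passed limma in the knockout; over all genes 50.5% lay below 0. Of the YAP-TEAD targets other than CCN genes, 16 of 20 were below 0 (median -0.17), and Axl was 2.30-fold and 2.46-fold lower in clone 1 and clone 2 (limma adjusted p = 0.149). The CCN inducers had a median of -0.22, 17 of 23 were below 0, and 0 passed 2-fold in both clones. Receptors and co-receptors had a median of -0.17 with 9 of 14 below 0, the binding partners 0.24 with 2 of 6 below 0, and the Hippo list -0.03 with 8 of 13 below 0. Of 6 genes on the protease and module list 5 lay below 0 (median -0.29), and of 4 insulin-like growth factor binding protein genes 3 did (median -0.10).

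The genes with the most similar profiles were sought for each measured member among 12057 other genes well above background on all arrays, by the root mean square difference of log2 levels centred on their mean over the 5 arrays. Nearest to Ccn2 were Lims2, a focal adhesion adaptor (0.30), Vill, a villin-like gene (0.47), and Cda, cytidine deaminase (0.48). All of these were lowest with vehicle, as genes picked for likeness to Ccn2 would be. Their fold with TGF-β1 over vehicle was 39.8, 38.2 and 85.9. The vehicle levels of Vill and Cda, -4.09 and -3.76, were close to that array's detection limit, so their folds are imprecise. They differed in the change from TGF-β1 alone to both agents, where Cda was 4.71-fold lower and Vill 1.17-fold lower. Against wild-type cells with TGF-β1, Vill was higher in both clones (0.60 and 0.64) and Lims2 in clone 2 only. Cda and Ccn2 were lower in both. Nearest to Ccn4 were Cald1, which encodes the actin-binding caldesmon, Vmn2r111, a gene of the vomeronasal receptor family, and Dok4, a docking protein gene (0.12, 0.12 and 0.13). With TGF-β1 Cald1 was 4.02-fold above vehicle. The vehicle level of Vmn2r111, -3.99, was also close to the detection limit, so its likeness to Ccn4 is imprecise. Nearest to Ccn1 were Btg1c (0.15), Nudt18, a nudix hydrolase gene (0.18), and Zdhhc2, a palmitoyltransferase gene (0.19). Like Ccn1, these 3 were highest with CCG1423 and lowest with vehicle. The likeness rests on 5 arrays and is a description of them.

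**Figure D4:**
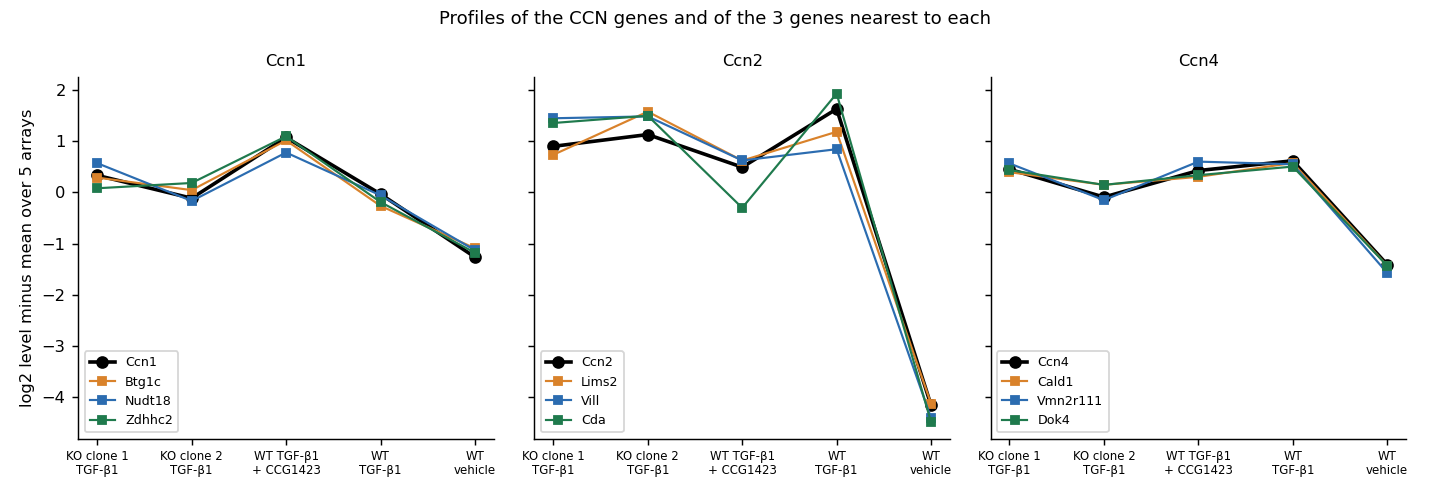
Log2 level minus its mean over the 5 arrays for Ccn1, Ccn2 and Ccn4 (black) and for the 3 genes nearest to each by root mean square difference. The Ccn2 group is lowest with vehicle and spreads both with TGF-β1 alone and with CCG1423 added, and the Ccn1 group peaks with CCG1423. The Ccn4 group is lowest with vehicle and next lowest in clone 2.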

How the data were processed

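RNA of 5 B16F1 cultures was hybridised to 5 Agilent 1-colour arrays (Cy3), all on 1 slide in 1 scan per the file headers. The intensity used is the processed signal of Agilent Feature Extraction 12.0.3.1, which per the file headers the authors deposited background-subtracted and spatially detrended but not normalized between arrays. Flags for outliers, saturation and signal well above background are that software's. The deposited value table holds the same intensity times 1 constant per array, with the rule behind it unknown; its column medians are 23.2 (clone 1), 28.8 (clone 2), 27.5 (CCG1423), 29.2 (TGF-β1) and 26.9 (vehicle).

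Control and outlier spots were left out, the log2 intensity was averaged per probe, and each array's 75th percentile was subtracted. Probes were named through RefSeq accessions without version (GRCm38.p6 gene table, 32988 of 56595 probes named; the headers name an older build). The probe with the highest mean stood for a gene. Genes entered a comparison if all arrays of either side were well above background. Single arrays were compared by fold (threshold 2), with no test. A side below background was raised to that array's detection limit (its lowest signal well above background) unless its own signal exceeded it. Ranks and histograms used the signals without this step. Knockout against wild type under TGF-β1 used limma 3.58.1 with R 4.3.3 (eBayes with trend, 4 groups, 1 residual degree of freedom, Benjamini-Hochberg, threshold 0.05). The other steps used Python 3.11.15. The alternatives covered scaling, background correction, filter, probe choice and prior; normexp used the median signal, since the files have no mean signal, a choice made after seeing the data. The members, the gene lists and the rule for named genes (up to 2 higher and 2 lower list members at 2-fold per comparison and list, measured on both sides, and the 3 nearest profiles per CCN gene) were chosen with earlier results of these data known. Precision is limited by the number of arrays.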

Additional observations from a re-analysis of the deposited data

How the results depend on the processing

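The log2 differences of Ccn1, Ccn2 and Ccn4 between wild-type cultures kept their sign under all 7 alternatives. Not all of these are checks for Ccn1 and Ccn2, which have 1 probe each. Dropping the filter, using all probes or averaging probes cannot change their differences, in the wild type or the knockout. With CCG1423 added to TGF-β1, 2 CCN genes reached 2-fold; on the deposited value table's scale 1 did, since Ccn1 then differed by 0.98. That scale moved the median of all genes by 0.10, -0.13 and -0.20 for TGF-β1, CCG1423 and the knockout. The Ccn2 difference with TGF-β1 ran from 5.36 (normexp) to 5.90, and with CCG1423 from -1.30 to -1.04. In the knockout, no CCN gene passed under any alternative that gave a test. The lowest adjusted p (limma) was 0.673, for Ccn2 without the filter. Over all alternatives the Ccn2 difference ran from -0.81 to -0.50. Ccn4 ran from -0.71 to -0.17, and Ccn1, from -0.08 to 0.37, changed sign under 2 of 10 alternatives. Without the filter, Ccn5 differed by 2.01 with TGF-β1 from a level below background.

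Calls over all features depended more on the setting. For TGF-β1 against vehicle, 700 were higher and 462 lower, against 382 and 191 with normexp, 1484 and 1100 with no filter, and 1450 and 1120 with all probes. For CCG1423 against TGF-β1, 845 and 981 stood against 354 and 517, 1572 and 1703, and 2188 and 2047 in the same order. For both agents against vehicle, 1047 and 1115 stood against 522 and 668, 1877 and 1791, and 2473 and 2383. In limma the knockout gave 1 higher and 31 lower. It gave 0 and 0 with quantile normalization or the mean over probes, 8 and 77 with normexp, 20 and 200 with the deposited table, 100 and 179 with no filter, 12 and 134 with all probes, and 10 and 174 without a trend. The cause was not tested. No paired analysis was possible because the groups share fewer than 2 replicate numbers, and leaving out 1 clone leaves no residual degree of freedom, so it gives a value and no test.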
